A study of Mus musculus with 87 samples.

Results

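The clustered protocadherins are the genes of the alpha, beta and gamma protocadherin clusters, which lie next to each other on mouse chromosome 18. They were taken by symbol (Pcdha, Pcdhb, Pcdhga, Pcdhgb or Pcdhgc followed by a number, with Pcdhac1 and Pcdhac2), and 58 of the 25277 genes in the deposited tables matched: 14 alpha, 22 beta and 22 gamma genes. The symbol alone chose them, so no measured value was used. In the mm10 assembly (RefSeq annotation of GRCm38.p6) the alpha genes span chromosome 18 from 36930285 to 37188897, the beta genes from 37264998 to 37521419 and the gamma genes from 37661775 to 37841873.

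Clustered protocadherins are cadherin-like cell surface proteins that bind copies of themselves on neighbouring cells, and they are best known in neurons, where different cells display different combinations and branches of the same cell avoid each other. In the alpha and gamma clusters each gene has its own large variable exon, which carries its own promoter and is spliced to a few constant exons that the whole cluster shares. Most beta genes consist of a single exon, and none is spliced to constant exons. Promoter choice is known to involve DNA methylation, the insulator protein CTCF and cohesin, and the methyltransferases are the genes altered in these cells. The C-type genes at the ends of the alpha and gamma clusters (Pcdhac1, Pcdhac2, Pcdhgc3, Pcdhgc4 and Pcdhgc5) are known to be less subject to random choice than the other variable exons.

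The study made mice by semi-cloning, in which a haploid embryonic stem cell that holds only a paternal genome stands in for sperm. RNA sequencing of 87 libraries in 31 groups was used. The cell line AG-haESC was sequenced with the Dnmt genotypes WT (3 libraries), TKO (3) and STOP (2). Embryos labelled pWT and pIR were sequenced at the 2-cell stage (2C; 4 and 4 libraries), as morulae (3 and 4) and as blastocysts (4 and 4). At E18.5, late gestation, batch 1 held pWT and pTKO brain, heart, kidney, liver and lung (2 libraries of each organ and genotype), and batch 2 held pWT and pIR heart and liver (4 of each). At postnatal day 1 (P1), pWT (3) and pIR (2) heart, kidney, liver and lung were sequenced. The labels used here do not spell out pIR, STOP or the letter p, name no strain, and do not say whether libraries of a group came from separate animals or cultures. All p-values therefore measure the spread between libraries, which may be technical. Organs of batch 1 may also come from the same animals.

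Library totals ranged from 6.1 to 37.4 M assigned reads. Dnmt1, the maintenance DNA methyltransferase, had 7021, 8935 and 8643 counts in the WT cells and 1393, 1558 and 1682 in the TKO cells, so reads were fewer in all 3 TKO libraries. It had 10795 and 11905 counts in the STOP cells, which is above WT. The labels do not name the altered exons, so these counts check the labels only in part. The organ labels fitted their markers: 12 neuronal genes summed to 9580 to 9920 CPM (the count divided by the library total in M) in pWT brain and to 3.97 to 48.6 in the other pWT organs of that batch. The 6 pluripotency genes all had reads in the haploid cells.

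Reads in the constant exons were counted for every gene of the alpha or gamma cluster at once. In pWT brain library 1, Pcdha8 and Pcdhac1 had 2083 and 2094 counts, and no alpha gene was below 2083. Over the 4 brain libraries, 9 to 11 of the 14 alpha counts and 18 or 19 of the 22 gamma counts lay within 5% of the shared count of their cluster in that library. The shared alpha exons lie at 37156155 to 37156213, 37159265 to 37159353 and 37184946 to 37187657 and cover 2860 bases. The shared gamma exons lie at 37825021 to 37825079, 37833265 to 37833353 and 37839903 to 37841870 and cover 2116 bases. The Ugt1a genes, liver enzymes that also share their last exons, had the same property: Ugt1a10 and Ugt1a2 had 5378 and 5377 counts in pWT liver library 1 of batch 2. In the batch 2 hearts, 8 to 13 alpha and 13 to 15 gamma counts were that close. Most rows of the alpha cluster, and most of the gamma cluster, therefore repeat largely the same reads, while Pcdhgc3 stood well above the shared count in brain and other organs.

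Each count was therefore split. The lowest count in a cluster was taken as the reads shared by its genes, and what a gene had above that as its own reads, which come mostly from its variable exon and are a lower bound. Pcdhgb8, whose annotated transcript stops inside the last shared exon at 37840489 and holds 735 of the 2116 shared bases (34.7%), was left out of the gamma minimum. Its count as a percent of the shared gamma reads is used as a rough measure of how reads are spread along that exon. That count also holds reads of 2499 exon bases of its own, so a change in Pcdhgb8 itself would move the percent too. The percent ranged from 16.54 to 52.62 over the haploid cells and organs. Own reads are named with a fold only where every library compared had at least 10 of them. The split was chosen after the counts had been seen.

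**Figure D1:**
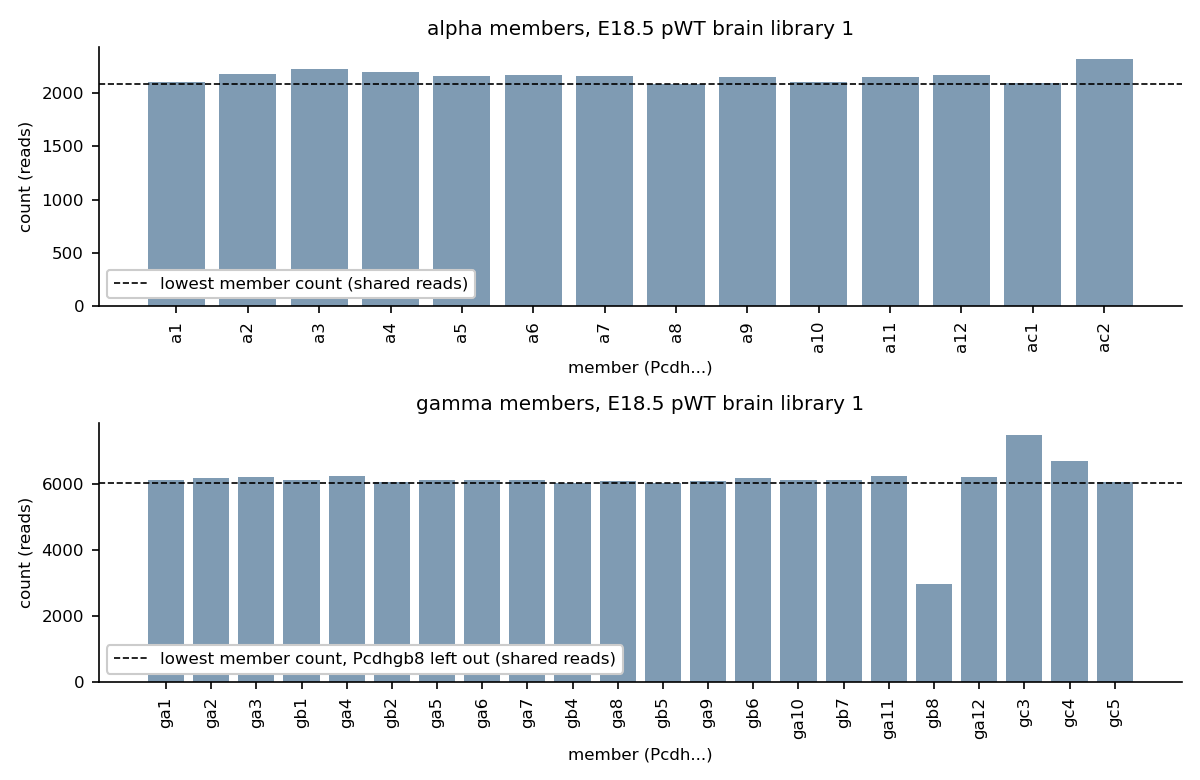
Counts (reads, y axis) of the 14 alpha and 22 gamma genes (x axis) in pWT brain library 1 at E18.5, with the lowest count of the cluster as a dashed line (Pcdhgb8 left out). Nearly all bars end just above the line, Pcdhgc3 and Pcdhgc4 rise clearly above it, and Pcdhgb8 ends at about the middle.

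The 3 clusters differed in where they were read. In pWT organs at E18.5 the alpha cluster was close to brain-specific, the gamma cluster was read in every organ, and the beta genes lay between. Shared alpha reads were 194.4 and 189.1 CPM in brain, 12.94 and 13.97 in lung, 1.439 and 0.8562 in kidney, 1.001 and 0.4206 in heart and 0.08508 on average in liver. The groups brain, lung and the rest did not overlap, while kidney and heart did. The brain mean was 14.3 times that of lung, 167 times that of kidney, 270 times that of heart and 2250 times that of liver.

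Shared gamma reads were 561.8 and 554.1 CPM in brain, 391.8 and 382.7 in lung, 217.1 and 216.5 in kidney, 198.6 and 198.1 in heart and 24.9 and 31.81 in liver. No organ overlapped its neighbour in that order, although kidney and heart were close. Brain held only 1.44 times the lung level and 2.57 times the kidney level, against 19.7 times the liver level. The summed beta reads were 227.2 ± 14.41 CPM in brain, 67.57 ± 0.8017 in lung, 60.14 ± 5.914 in kidney, 25.26 ± 1.892 in heart and 4.403 ± 1.475 in liver (SD, n = 2 each). Lung (68.14 and 67 CPM) and kidney (64.32 and 55.95) did not overlap there, but lay close together.

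All 57 members tested were higher in brain than in the mean of the other 4 organs by edgeR's quasi-likelihood test with Benjamini-Hochberg adjustment over all genes, where 67.5% of all genes tested differed and 32.9% were higher. The only member not tested was Pcdhb1, which had hardly any reads. The log2 difference was 7.24 for the shared alpha reads (adjusted p = 6.21e-07 by edgeR) and 1.57 ± 0.112 (SE) for the shared gamma reads (adjusted p = 1.29e-05 by edgeR). The 21 beta genes tested ranged from 1.45 (Pcdhb14) to 4.89 (Pcdhb2), with a median of 3.24. Because this is bulk tissue, more cells of a type and more RNA per cell cannot be told apart here or in any later comparison.

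At P1 no brain was sequenced, and liver was again lowest for each cluster. Shared alpha reads were 20.08, 8.182 and 17.33 CPM in pWT lung, 0.74, 0.8195 and 0.765 in kidney and 1.295, 0.4383 and 0.7924 in heart, with none in 2 of the 3 livers. Heart and kidney overlapped. Shared gamma reads averaged 294.1 ± 32.53 CPM in lung, 222.6 ± 20.12 in kidney, 217 ± 12.29 in heart and 26.32 ± 1.247 in liver (SD, n = 3). Kidney and heart were within each other's spread. The beta order differed from that at E18.5: the summed beta reads were 78.94, 72.53 and 83.11 CPM in kidney, above 49.2, 61.78 and 65.39 in lung, and averaged 35.88 ± 3.542 in heart and 3.65 ± 0.3232 in liver. Lung exceeded liver 11.2 times for gamma, 16.1 times for the beta sum and 644 times for alpha, the last against a liver level that rests on 1 library. Among heart, kidney, liver and lung, 52 of 57 members differed at E18.5 (68.7% of all genes) and 56 of 56 at P1 (94.7% of all genes), by edgeR's test. With shared reads counted once, 33 of 42 and 37 of 40 members differed (68.6% and 94.7% of all genes).

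**Figure D2:**
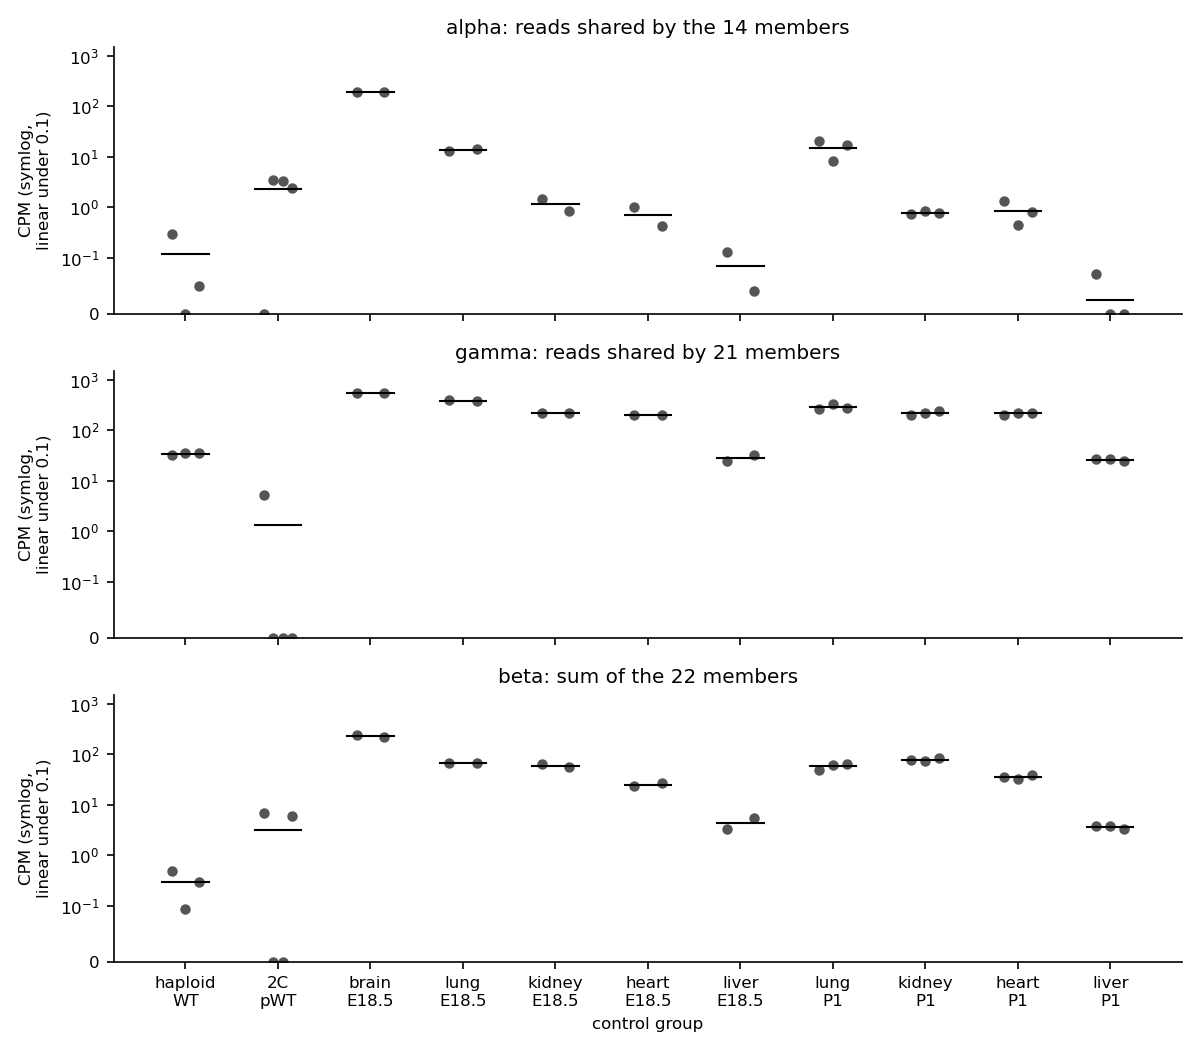
CPM (y axis, logarithmic above 0.1) of the alpha shared reads, the gamma shared reads and the summed beta reads in control groups (x axis), with points for libraries and lines for means. Alpha falls by far more between brain and the other organs than gamma does, and the liver is lowest at both ages for all 3 measures.

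Own reads showed which genes carried each cluster. Per kilobase of own exon, Pcdhgc3 had 39.36 CPM per kb in pWT brain, 48.1 in lung, 31.33 in kidney, 24.51 in heart and 4.212 in liver, and it held the most own gamma reads in each of these organs. In its brain libraries 1444 and 1657 reads were its own. It was called higher in brain than in the other organs by a log2 difference of only 0.64 (adjusted p = 0.00203 by edgeR), and its lung level was above its brain level.

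Pcdhgc4, a C-type gene known for its need in neuron survival, was the opposite: 17.54 CPM per kb in brain and at most 0.7457 in the other organs, a log2 difference of 5.5 (adjusted p = 1.1e-06 by edgeR). Pcdhgc5 had few reads of its own in brain, 27 and 34. In the alpha cluster Pcdhac2 had the most own reads, 234 and 240 in brain and 114 and 158 in lung. On the scale of length it reached 6.747 CPM per kb in brain and 1.767 in lung. Pcdhac1 had 11 and 6 own reads in brain, and Pcdha8 set the minimum with 0.

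Among the other gamma genes in brain, Pcdhga4 had 11.57 CPM per kb, Pcdhga3 7.07, Pcdhga11 6.976, Pcdhga2 5.859 and Pcdhgb6 5.466. The lead of Pcdhga4 rests on its short own exon length of 1570 bases, against 2601 for Pcdhga3 and 2637 for Pcdhga11. Their own counts were close, at 210 and 211 for Pcdhga4, 192 and 238 for Pcdhga3 and 221 and 204 for Pcdhga11. In the same brains the shared gamma exons stood at 263.7 CPM per kb and the shared alpha exons at 67.04. Of the 21 gamma genes with own reads, 16 were called higher in brain than elsewhere, and 4 were not called, among them Pcdhgb2 with a log2 difference of 0.12 and Pcdhga7 with 1.12. The remaining one, Pcdhgb4, was called lower: it set the minimum in brain, with 0 own counts, and had 58 and 42 in kidney. These tests rest on the edgeR fit in which each cluster's shared reads were counted once, where 67.5% of all genes were called, 32.8% higher and 34.7% lower.

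The beta genes, which share no exon, could be ranked directly. In brain Pcdhb17 was highest at 7.22 ± 0.4455 CPM per kb (SD, n = 2), followed by Pcdhb20 at 5.366, Pcdhb7 at 5.204 and Pcdhb19 at 4.462. Apart from Pcdhb1 at 0.03225, the lowest was Pcdhb13 at 1.334. Pcdhb17 also led in lung (2.887), kidney (2.606) and heart (1.598), and in lung and kidney Pcdhb22 came next (2.084 and 2.182). In liver the level was low throughout: Pcdhb22 had 0.2107, Pcdhb14 0.2002 and Pcdhb17 0.1403 CPM per kb. The brain excess was smallest for Pcdhb14 and Pcdhb22, with log2 differences of 1.45 and 1.84, against 2.31 for Pcdhb17 and 3.85 for Pcdhb7.

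**Figure D3:**
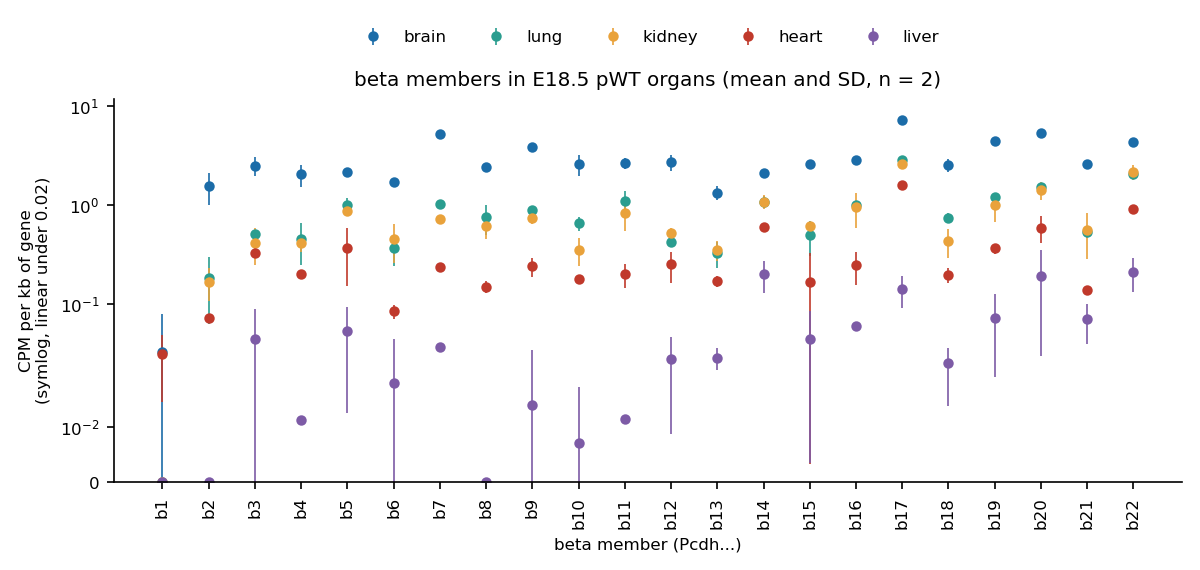
CPM per kilobase of gene (y axis, logarithmic above 0.02) of the 22 beta genes (x axis) in 5 pWT organs at E18.5, as means with SD of 2 libraries. Brain is the top point for nearly every gene, Pcdhb17 is the highest gene in brain, and Pcdhb1 is near 0 everywhere.

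Haploid stem cells read the gamma cluster and hardly the others, and the shared gamma reads were higher in TKO and in STOP cells than in WT. They were 542, 765 and 707 counts (32.3, 36.07 and 34.78 CPM) in WT cells, 1102, 1163 and 1184 counts (55.66, 55.26 and 48.42 CPM) in TKO cells, and 1029 and 943 counts (54.54 and 47.61 CPM) in STOP cells. Every TKO and STOP library was above every WT library. The log2 change was 0.58 ± 0.0946 in TKO (adjusted p = 0.00664 by edgeR) and 0.47 ± 0.105 in STOP (adjusted p = 0.0182 by edgeR), and both comparisons use the same WT libraries. Without any single library, the TKO call remained at log2 changes of 0.53 to 0.61, while the STOP call was lost in each of the 5 fits, with adjusted p from 0.0506 to 0.129 by edgeR.

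Counted gene by gene, all 22 gamma members were called higher in TKO, where 14.6% of all genes were called and 9.83% were higher, and all 22 in STOP, where 23.1% were called and 13.8% were higher. Since these rows carry largely the same reads, each count stands mostly for 1 shared measurement. Among them Pcdhga10 rose by 0.57 on the log2 scale in TKO (adjusted p = 0.00572 by edgeR) and by 0.47 in STOP (adjusted p = 0.0155 by edgeR). Pcdhgb8, the truncated model, rose by 0.66 (adjusted p = 0.013 by edgeR) and by 0.53 (adjusted p = 0.031 by edgeR). Its TKO call was lost in 3 of 6 fits without a library, with log2 changes of 0.58 to 0.73. In STOP its call was lost in 5 of 5 such fits, and that of Pcdhga10 in 4 of 5.

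The own reads of Pcdhgc3 did not follow. They were 12.46, 10.28 and 10.48 CPM in WT, 10.81, 13.26 and 13.46 in TKO and 12.35 and 11.81 in STOP, so the groups overlapped. The log2 change was 0.14 ± 0.166 in TKO (adjusted p = 0.598 by edgeR) and 0.03 ± 0.186 in STOP (adjusted p = 0.921 by edgeR). Pcdhgc3 own reads made up 32.39% of the shared gamma reads in WT and 23.73% in both TKO and STOP. With shared reads counted once, 17 gamma genes could be tested in TKO, and 0 were called, where 14.3% of all genes were, with a median log2 change of 0.74. In STOP 1 was called, Pcdhga5, whose lowest own count was 4 (23% of all genes, 13.7% higher).

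The alpha and beta clusters were close to silent in these cells. Shared alpha counts were 5, 0 and 1 in WT, 15, 8 and 9 in TKO and 3 and 13 in STOP. All 3 TKO libraries were above the WT libraries, but the 14 alpha rows, with a median log2 change of 2.12, did not pass the test. Summed beta counts were 8, 2 and 6 in WT, 5, 9 and 14 in TKO and 9 and 7 in STOP, and none of the 22 beta genes had enough reads to be tested. STOP and TKO cells did not differ in any member tested (0.0401% of all genes called), and their shared gamma reads overlapped.

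The genes known to act on the clusters were also measured. In TKO cells, 2 of 27 regulators were higher and 4 lower (9.83% and 4.72% of all genes). The methyltransferases are the genes altered in these cells, so the regulator counts include calls that go with the genotype itself. The lower ones were Dnmt1 (log2 change -2.62), Dnmt3a (-2.65), Dnmt3b (-2.54) and the cohesin subunit Stag2 (-0.82), and the higher ones were Smchd1 (0.44), a chromatin protein known to silence the clusters, and Wiz (0.27). In STOP cells, 2 were higher (Smchd1 at 0.45 and Dnmt1 at 0.38) and 5 lower, among them Stag2 at -0.96 and Tet2 at -1.58 (13.8% and 9.37% of all genes). Of 13 genes whose products act with protocadherins, 3 rose in TKO, including the kinase Fyn at 1.57, and 4 in STOP, including Cyfip2 at 1.31. Of the 2 nonclustered protocadherins tested, Pcdh1 rose in STOP by 2.23 and neither passed the test in TKO.

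In embryos before implantation few members had reads. Shared gamma counts in 2C embryos were 58, 0, 0 and 0 in pWT and 0, 25, 0 and 0 in pIR. Pcdhgb7 had reads in all 8 libraries at that stage, with 98, 1068, 1265 and 422 counts in pWT and 372, 773, 62 and 64 in pIR, or 8.623 to 102.4 CPM. The groups overlapped, and libraries of a group differed widely. Pcdhb17 had 56, 0, 0 and 107 counts against 13, 42, 32 and 33. Shared alpha counts were 0, 63, 79 and 45 against 31, 76, 0 and 20, so some libraries of each group lacked them. None of 16 members tested was called in 2C embryos, where edgeR called 0% of all genes (235 genes had an unadjusted p under 0.05).

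In morulae all alpha and beta genes had 0 counts and no gamma gene had more than 8, so no member was tested (0.136% of all genes called). In blastocysts the shared gamma counts ranged from 0 to 20 and the beta counts were 0. Neither of the 2 members tested was called there, while 10.6% of all genes were. At these counts a difference between pWT and pIR was not detectable.

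In pTKO brain the amount of each cluster was close to that in pWT brain, while the mix of gamma genes differed. Shared gamma reads were 561.8 and 554.1 CPM in pWT and 612.9 and 590.5 in pTKO, a log2 change of 0.09 ± 0.0543 (adjusted p = 0.423 by edgeR). Shared alpha reads were 194.4 and 189.1 against 211.8 and 213.3 CPM, a log2 change of 0.13 (adjusted p = 0.273 by edgeR). The pTKO libraries were above the pWT libraries in both, but neither passed the test. Summed beta reads overlapped at 237.4 and 217 against 224.7 and 220.6 CPM.

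With the rows as deposited, 0 of 57 members were called in brain (1.75% of all genes). An unadjusted p under 0.05 was found for 13 members. The share of all genes at that level is not given here, and alpha and gamma rows repeat largely the same reads. With shared reads counted once, 5 gamma genes were higher and 4 lower of 21 tested. Of all genes 1.8% were called, 0.721% higher and 1.08% lower. The gamma calls include genes with own counts under 10, some of which set the subtracted minimum, as given below. Pcdhgc3 had 1444 and 1657 own counts (134.8 and 131.3 CPM) in pWT and 844 and 1280 (77.11 and 79.08 CPM) in pTKO. The groups were far apart against their spread, and the log2 change was -0.78 ± 0.0665 (adjusted p = 6.77e-05 by edgeR). Its share of the shared reads went from 23.84% to 12.99%.

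Pcdhga4 also fell, from 210 and 211 own counts to 100 and 137, a log2 change of -1.06 ± 0.162 (adjusted p = 0.00676 by edgeR). Pcdhga11 rose from 221 and 204 to 417 and 653, a log2 change of 1.08 ± 0.124 (adjusted p = 0.000612 by edgeR). The groups did not overlap in either gene. Pcdhga8 rose from 66 and 25 to 124 and 179 (log2 change 1.48, adjusted p = 0.0438 by edgeR), and Pcdhga9 rose from 63 and 25 to 136 and 152 (log2 change 1.48, adjusted p = 0.0466 by edgeR). The last 2 calls were each lost in 1 of the 4 fits that leave out a library, and the other 3 in none.

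The remaining 4 calls involved counts under 10, so only counts are given. Pcdhgb4 had 0 and 0 own reads in pWT and 57 and 63 in pTKO, and Pcdhgb5 had 11 and 1 against 72 and 108. Pcdhga5 had 92 and 79 against 20 and 7, and Pcdhgc5 had 27 and 34 against 0 and 0. A value of 0 here marks the gene that sets the minimum, not a gene without reads. Pcdhgb4 set it in pWT and Pcdhgc5 in pTKO, so their 0 values come from the subtraction. Because the subtracted gene differed between the groups, low own counts cannot be compared on an equal floor. Pcdhgc4 was measured at 656 and 767 own counts in pWT and 573 and 912 in pTKO, a log2 change of -0.18 (adjusted p = 0.281 by edgeR), and Pcdhac2 at 234 and 240 against 188 and 266, a log2 change of -0.3 (adjusted p = 0.271 by edgeR). When the spread was estimated from the libraries of all organs together, the calls of Pcdhgc3, Pcdhga4, Pcdhga8, Pcdhga9 and Pcdhga11 were lost (adjusted p = 1 by edgeR), with a log2 change of -0.77 for Pcdhgc3.

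**Figure D4:**
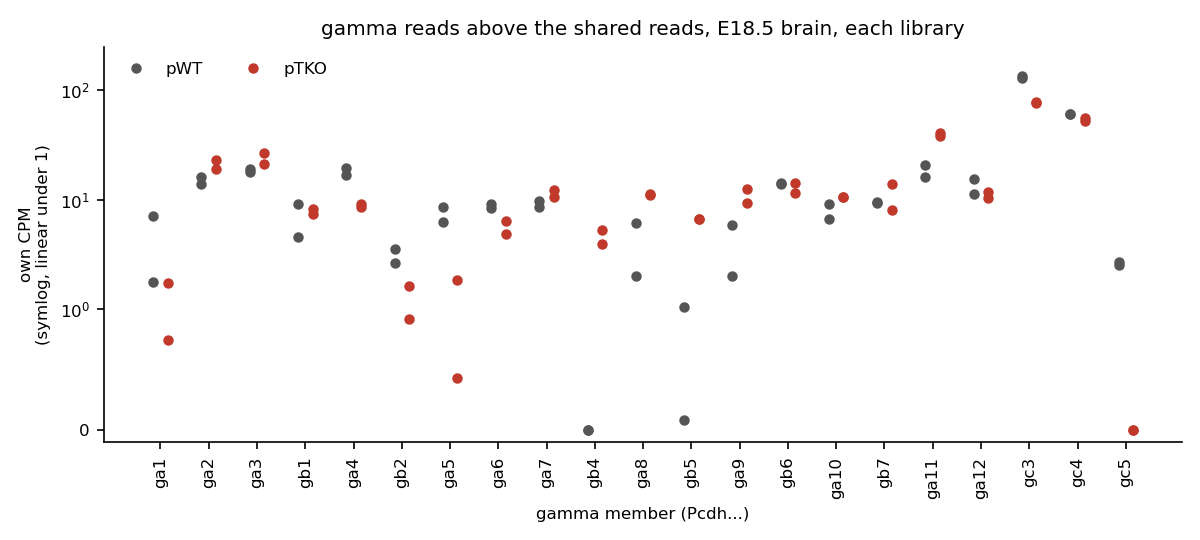
Own reads in CPM (y axis, logarithmic above 1) of 21 gamma genes (x axis) in each pWT and pTKO brain library. The points of Pcdhga8, Pcdhga9 and Pcdhga11 are higher in pTKO, those of Pcdhga4 and Pcdhgc3 are lower, and those of Pcdhgc4 lie close together.

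Beta genes in pTKO brain were not called, and 4 of 22 were higher and 5 lower in both pTKO libraries than in both pWT libraries (26.6% and 21.5% of all genes). Pcdhb7 was nearest, with 194 and 232 counts against 141 and 208 (log2 change -0.52, adjusted p = 0.072 by edgeR). The Pcdhgb8 percent and neuronal markers were close between the groups. Pcdhgb8 was 49.32% and 48.48% of the shared gamma reads in pWT and 46.21% and 47.76% in pTKO. The 12 neuronal markers summed to 9580 to 9920 and 9660 to 9790 CPM. The 8 astrocyte and oligodendrocyte markers, all with reads, summed to 501 to 553 CPM in pWT and 600 to 674 in pTKO, with 3 of 8 called higher. The 8 markers of peripheral nerve and glia summed to 33.9 to 49.3 and 57.6 to 59.9 CPM, the 5 hepatocyte markers to 317 to 556 and 652 to 846, and the 6 erythroid markers to 880 to 1050 and 533 to 621, also without overlap. Across genes the log2 change had a Spearman correlation of -0.29 with transcript length, a description over genes that share libraries. Whether these differences bear on the gamma genes was not tested.

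In brain, 4 of 26 regulators were lower and none higher (1.06% and 0.689% of all genes): Dnmt1 (log2 change -0.79, adjusted p = 4.26e-05 by edgeR), Dnmt3a (-0.69), the cohesin loader Nipbl (-0.4) and Tet3 (-0.31). Dnmt1 and Dnmt3a are methyltransferases, the genes altered in the TKO cells, so this count may include calls set by the genotype. Of 12 nonclustered protocadherins only Pcdh19 fell (-0.29), and of 14 partner genes Ptk2b, a focal adhesion kinase family member that binds protocadherins, rose by 0.67.

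In pTKO heart 21 of 53 members were called lower, all of them gamma rows, where 26.8% of all genes were called and 11.9% were lower. The shared gamma reads behind them were 198.6 and 198.1 CPM in pWT and 133.8 and 151.4 in pTKO, a log2 change of -0.55 ± 0.111 (adjusted p = 0.0303 by edgeR). Pcdhgc3 own reads were 76.49 and 89.21 CPM against 55.27 and 57.39, a log2 change of -0.63 ± 0.104 (adjusted p = 0.0233 by edgeR). Both measures were lower in both pTKO hearts. Pcdhga11 went the other way, from 76 and 74 own counts to 143 and 191, a log2 change of 1.23 (adjusted p = 0.0323 by edgeR). It and Pcdhgc3 were the 2 genes called of 20 gamma genes tested once shared reads were counted once (26.8% of all genes, 15% higher and 11.8% lower). Each of these 3 calls was lost in 2 of the 4 fits without a library.

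Some marker sums separated the heart groups. The 6 erythroid markers summed to 2750 to 2900 CPM in pWT and 887 to 1760 in pTKO hearts, the 6 cardiomyocyte markers to 30100 to 39000 and 41900 to 42900, and the 8 markers of peripheral nerve and glia to 30.6 to 35.1 and 44.7 to 45.8. The 5 hepatocyte markers (3.81 to 99.8 and 11.4 to 2080) and the 12 neuronal markers (12.6 to 41.2 and 27.2 to 150) overlapped, each with 1 high pTKO library. Across genes the log2 change had a Spearman correlation of 0.36 with transcript length. Their part in the gamma change was not tested. Of 26 regulators in heart, 14 were higher, including Nipbl (2.93), Stag2 (2.79), Smc3 (2.25) and Smchd1 (1.85), and 3 were lower, Dnmt1 (-0.91), Trim28 (-0.54) and Wiz (-0.44), where 15% and 11.9% of all genes were. Dnmt1 is a methyltransferase, as are the genes altered in the TKO cells, so its call may be set by the genotype. Pcdh7 (1.07) and Pcdh9 (2.03) rose and Pcdh1 (-0.61) fell among 11 nonclustered protocadherins.

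No member was called in pTKO kidney (0 of 57), liver (0 of 25) or lung (0 of 57), and edgeR called 0% of all genes in each. Unadjusted p-values under 0.05 were found for 8, 2 and 3 members. The share of all genes at that level is not given here, and alpha and gamma rows repeat largely the same reads. Pcdhgc3 own reads were nevertheless lower in both pTKO libraries of each organ: 96.3 and 115.5 CPM against 39.22 and 58.37 in kidney (log2 change -1.16 ± 0.244, adjusted p = 0.347 by edgeR), 13.57 and 14.9 against 5.509 and 8.851 in liver (-1.12 ± 0.321, adjusted p = 0.623), and 170.8 and 154.3 against 69.69 and 131.5 in lung (-0.63 ± 0.332, adjusted p = 0.804). Shared gamma reads were lower in both pTKO libraries in kidney (217.1 and 216.5 against 206.6 and 190.8 CPM) and liver (24.9 and 31.81 against 21.15 and 20.79). In lung they were higher, at 391.8 and 382.7 against 511.5 and 404.8 CPM. Averaged over the 5 organs, their log2 change was -0.24 and did not pass the test (adjusted p = 0.0842 by edgeR). Shared alpha reads overlapped in kidney and in lung.

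Averaged over the 5 organs, the pTKO effect on Pcdhgc3 own reads was a log2 change of -0.93 ± 0.129 (adjusted p = 0.00545 by edgeR; 3.59% of all genes called, 1.95% lower), in the same direction in 5 of 5 organs. This average was kept in all 20 fits without a library, with log2 changes of -1.03 to -0.82. Averages over organs treat the libraries as independent. If organs came from the same animals, the p-values of these averages are too small and the organs are not separate evidence. The test of a difference between organs did not pass for Pcdhgc3 own reads (adjusted p = 0.673 by edgeR). With the rows as deposited it called 0 of 57 members (0.0106% of all genes). With so few libraries per organ and genotype, it cannot show that the effect is equal. Pcdhgb8 was 48.82% and 50.6% of the shared gamma reads in pWT kidney and 40.84% and 45.63% in pTKO, and 45.11% and 42.4% against 31.02% and 42.77% in lung, where pTKO library 1 stood apart. In heart the order was the other way, 42.67% and 45.46% against 48.79% and 50.14%. The 12 neuronal markers summed to 25.5 to 48.6 CPM in pWT kidney and 61.2 to 124 in pTKO, and to 37.2 to 37.8 and 32.5 to 33.1 in lung. In kidney the 7 fibroblast markers summed to 4940 to 5050 CPM in pWT and 3860 to 4120 in pTKO, the 6 kidney epithelium markers to 2160 to 3790 and 1610 to 1690, and the 5 endothelial markers to 740 to 925 and 633 to 648, all without overlap. In lung the fibroblast sums overlapped, at 5660 to 6040 and 5190 to 6370. The pWT livers differed from each other, with hepatocyte marker sums of 125371.5 and 70217.9 CPM and macrophage marker sums of 212.7 and 795.7. In pTKO liver these sums were 120031.2 and 119699.2, and 189.9 and 198.5 CPM. Across genes, the log2 change in lung had a Spearman correlation of -0.46 with transcript length, and in kidney of 0.07. The part of read placement and of cell makeup in the Pcdhgc3 difference was not tested.

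Of the beta genes, Pcdhb22 rose on average over the organs by a log2 change of 0.69 ± 0.13 (adjusted p = 0.0205 by edgeR; 1.64% of all genes higher). It had 54 and 57 counts against 111 and 87 in heart, 130 and 176 against 256 and 327 in kidney, 11 and 20 against 32 and 35 in liver and 152 and 172 against 397 and 263 in lung. Its CPM groups were apart in these 4 organs and overlapped in brain (141 and 174 against 173 and 220 counts). In no single organ was it called. In pTKO lung it was the beta gene with the most counts, 330 on average, a place that Pcdhb17 held in pWT lung with 239. Without 1 library the adjusted p ranged from 0.0049 to 0.0638, and 8 of 20 fits lost the call.

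Pcdhb7 fell on average by 1.1 on the log2 scale (SE 0.207, adjusted p = 0.0202 by edgeR), with 55 and 60 counts against 39 and 38 in kidney and 89 and 94 against 63 and 42 in lung, and it was lower in both pTKO libraries of all 5 organs. Its call was also lost in 8 of 20 fits. The average gives each organ equal weight, and in liver Pcdhb7 had counts under 10 (0.03594 against 0.005997 CPM per kb). Pcdhb5 fell on average by 1.11 (adjusted p = 0.0494 by edgeR), with 72 and 67 counts against 26 and 42 in kidney, but in brain it stood at 88 and 90 against 125 and 158 counts, above pWT. Liver counts of Pcdhb5 were under 10 as well (0.05275 against 0.006524 CPM per kb). How far liver carries these averages was not tested. Averages of 2 more genes, Pcdhgb4 and Pcdhgb6, passed the test on own counts that fell under 10 in at least 1 organ. Pcdhga11, which rose in brain and heart, had an average of 0.79 ± 0.267 that did not pass (adjusted p = 0.096 by edgeR). Its own counts were 21 and 58 against 38 and 55 in kidney and 24 and 60 against 57 and 95 in lung.

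The pIR organs of E18.5 gave no call in any cluster. Shared gamma reads in heart were 132.7, 122.9, 128.5 and 128.1 CPM in pWT and 122.3, 132.9, 114.4 and 116.1 in pIR, a log2 change of -0.07 (adjusted p = 0.836 by edgeR). In liver they averaged 15.79 ± 1.094 and 16.17 ± 1.983 CPM (SD, n = 4; log2 change 0.04). Pcdhgc3 own reads averaged 54.47 ± 1.595 and 52.4 ± 2.219 CPM in heart, a log2 change of -0.05 ± 0.0548, and 6.515 ± 0.9779 and 6.655 ± 0.9369 in liver, a log2 change of 0.03 ± 0.14. All groups overlapped. None of 49 members in heart and none of 24 in liver was called, where 0.0137% and 0% of all genes were. The test of a difference in effect between heart and liver called none of 50 members (0.00622% of all genes).

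In pIR mice at P1, Pcdhgc3 own reads were higher in all 4 organs. They were 18.99, 22.79 and 24.83 CPM in pWT heart and 44.14 and 49.39 in pIR, 43.29, 34.3 and 49.12 against 101.4 and 79.73 in kidney, 82.75, 105.7 and 75.93 against 170.8 and 148.9 in lung, and 1.559, 1.923 and 1.311 against 11.34 and 6.524 in liver. No pIR library overlapped pWT in any organ. The log2 changes were 0.98 ± 0.163 in heart (adjusted p = 0.0405 by edgeR; 2.31% of all genes called, 1.53% higher), 1.15 ± 0.163 in kidney (adjusted p = 0.00865; 10.8%, 7.69% higher), 0.82 ± 0.14 in lung (adjusted p = 0.0248; 2.67%, 1.58% higher) and 2.81 ± 0.304 in liver (adjusted p = 2.65e-05; 39.2%, 20.7% higher).

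The change differed among the 4 organs (adjusted p = 0.00169 by edgeR; 25.3% of all genes called), and liver against the other organs was not tested separately. The liver value rested on 22, 27 and 20 own counts in pWT against 215 and 133 in pIR. Without any single library the liver call was kept, at log2 changes of 2.41 to 3.13. The heart call was lost in 4 of 5 such fits, and the kidney and lung calls in 2 of 5 each, with log2 changes that stayed between 0.72 and 1.3.

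**Figure D5:**
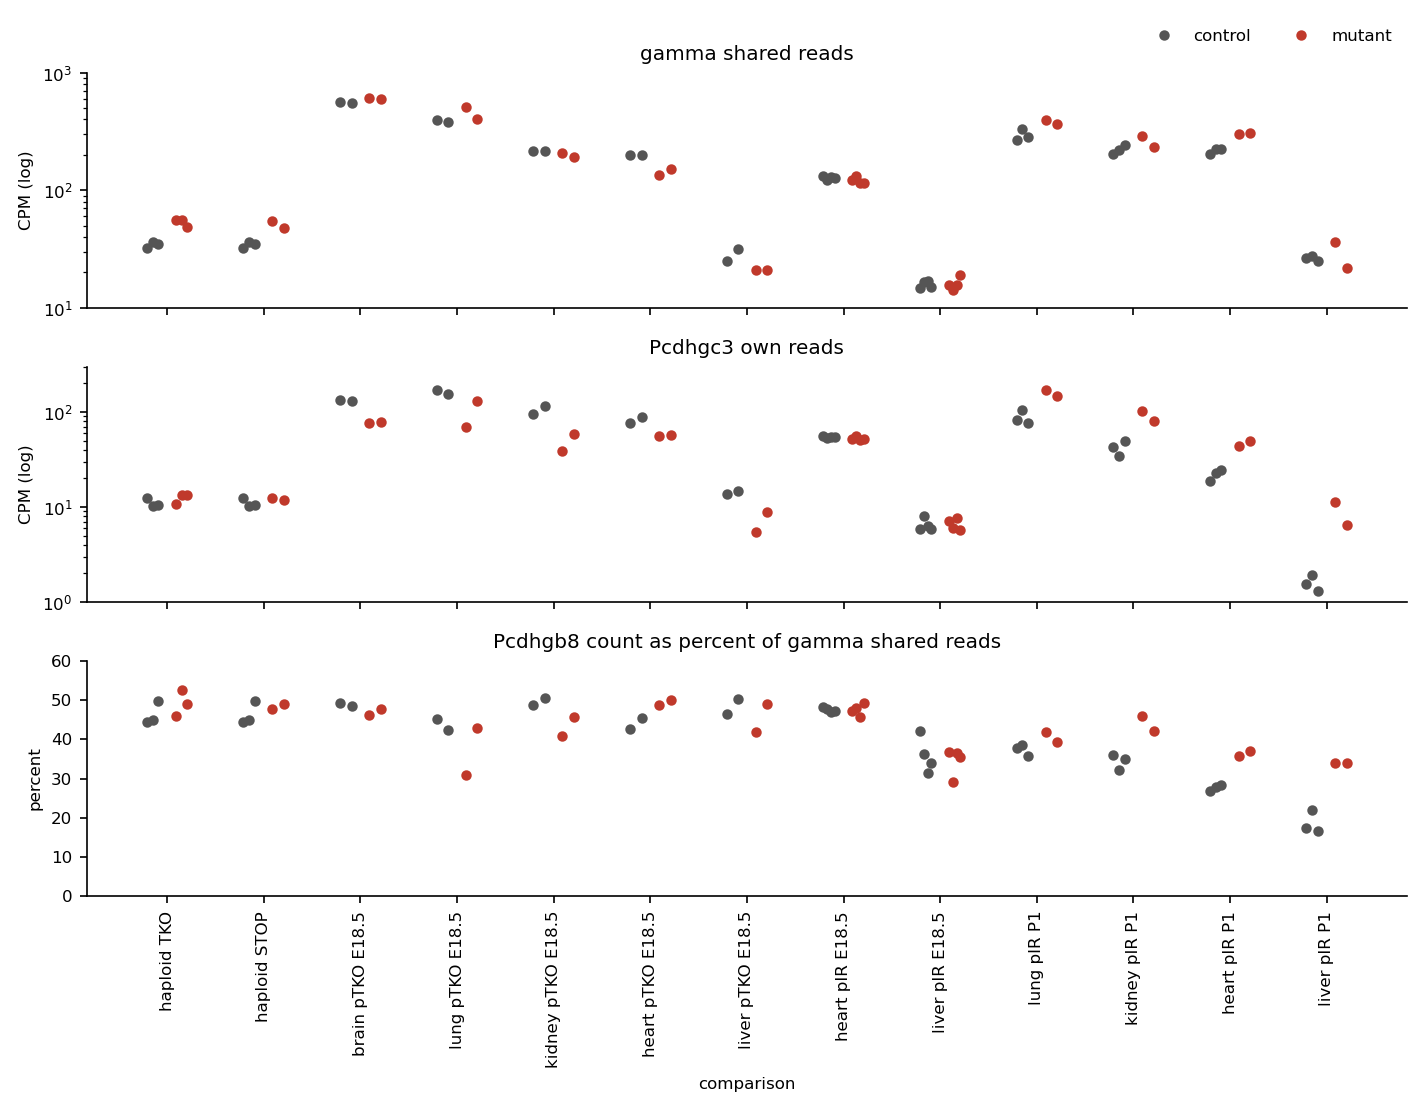
Gamma shared reads and Pcdhgc3 own reads (CPM, log y axes) and the Pcdhgb8 count as a percent of shared gamma reads, for each library of a control (grey) and a mutant group (red) in 13 comparisons (x axis). Pcdhgc3 is lower in every pTKO organ and higher in every pIR organ at P1, and the Pcdhgb8 percent is higher in those same pIR organs.

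The Pcdhgb8 percent moved with the P1 groups. Pcdhgb8 was 26.87%, 27.91% and 28.35% of the shared gamma reads in pWT heart and 35.79% and 37.06% in pIR, 36.07%, 32.19% and 35.02% against 46.04% and 42.1% in kidney, 37.83%, 38.64% and 35.76% against 41.83% and 39.41% in lung, and 17.33%, 22.08% and 16.54% against 34.05% and 34% in liver. The pIR libraries were above the pWT libraries in each organ, and pWT liver at P1 was the lowest of the cell and organ groups. The Pcdhgb8 count itself was called higher in heart (log2 change 0.78), kidney (0.65) and liver (1.35). In pWT organs at E18.5 the own reads of Pcdhgc3 were 41.78% of the shared reads in heart, 48.85% in kidney, 50.67% in liver and 41.96% in lung, while at P1 they were 10.21%, 18.98%, 6.043% and 29.86%. How much of the Pcdhgc3 difference goes with read placement was not tested.

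With the rows as deposited, Pcdhgb8 was the only member called in P1 heart (1 of 54; 2.32% of all genes, 1.54% higher) and in P1 kidney (1 of 56; 10.6%, 7.58% higher). In liver 16 of 22 members were called, all higher gamma rows (39.2% of all genes, 20.7% higher), among them Pcdhgc3 at 0.79 (adjusted p = 0.00455 by edgeR). The shared gamma reads behind them were 26.57, 27.42 and 24.97 CPM in pWT and 36.54 and 21.93 in pIR. These groups overlapped, and the log2 change of 0.49 ± 0.181 (adjusted p = 0.0491 by edgeR) was on the scale of the fit, which corrects for composition, whereas CPM is per total count. That call was lost in 4 of 5 fits without a library.

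In lung 0 of 56 members were called (2.6% of all genes). An unadjusted p under 0.05 was found for 28. Alpha and gamma rows repeat largely the same reads, so these are not 28 separate results. The share of all genes at that level is not given here. Shared gamma reads were 268.4, 330.7 and 283.3 CPM against 396.7 and 368.3, a log2 change of 0.34 (adjusted p = 0.111 by edgeR), and in heart 202.9, 225.5 and 222.5 against 299.6 and 308.6, a log2 change of 0.39 (adjusted p = 0.132). Both were higher in both pIR libraries without passing the test. In kidney the groups overlapped (log2 change 0.28, adjusted p = 0.166 by edgeR).

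Own reads of most other gamma genes did not pass the test. In kidney 19 of 19 gamma genes tested had a log2 change above 0 (median 1.01), against 48.9% of all genes, and 2 were called, where 10.8% of all genes were. In lung 18 of 19 were above 0 (median 0.83), against 48.8% of all genes, and 2 were called, where 2.67% of all genes were. Own reads of a cluster share the subtracted count, so these genes are not independent. Where every library held at least 10 own reads, changes ran from 0.29 to 1.42 over 12 genes in kidney and from 0.16 to 1.33 over 17 genes in lung. Pcdhga6 was called in lung at 1.32 ± 0.23 (adjusted p = 0.0274 by edgeR), a call lost in 4 of 5 fits without a library. In heart, Pcdhgb7 (-0.05) and Pcdhga12 (-0.04) stood at the low end. The second kidney call, of Pcdhga1, rests on as few as 3 own counts.

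Alpha and beta genes at P1 gave no calls. Shared alpha reads were 0.74, 0.8195 and 0.765 CPM in pWT kidney and 1.536 and 1.458 in pIR, apart but not past the test (log2 change 0.99, adjusted p = 0.118 by edgeR), and they overlapped in lung. Pcdhac2 had 96, 66 and 62 own counts in pWT lung and 157 and 138 in pIR, and Pcdhac1 had 2, 2 and 4 against 10 and 9. Summed beta reads were 49.2, 61.78 and 65.39 CPM in pWT lung and 82.08 and 84.3 in pIR, and all 20 beta genes tested there had a log2 change above 0, with a median of 0.51 (48.9% of all genes were above 0). In lung 14 of 22 beta genes were higher in both pIR libraries (24.2% of all genes). In kidney 6 of 20 beta genes had a log2 change above 0, with a median of -0.09.

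Fibroblast markers moved in the same organs. All 7 had reads, and their sum was 2910 to 4010 CPM in pWT and 6820 to 10100 in pIR heart (4 of 7 called higher), 2890 to 3300 and 4580 to 4760 in kidney (4 of 7), and 3870 to 4970 and 6690 to 8460 in lung (3 of 7). In liver it was 368 to 602 and 368 to 459, with none called, while the 6 erythroid markers summed to 55800 to 69600 and 15600 to 23800 (6 of 6 called lower) and the 5 hepatocyte markers to 36900 to 45900 and 93800 to 106000 (5 of 5 called higher). The erythroid sum was also lower in pIR heart (3720 to 4580 and 2080 to 2390) and lung (17400 to 27200 and 8490 to 11300), and the 6 kidney epithelium markers summed to 864 to 1030 in pWT and 2360 to 2410 in pIR kidney. The 12 neuronal markers overlapped in lung, at 64.4 to 78.8 CPM in pWT and 73.5 to 97.5 in pIR. The part of cell makeup in the protocadherin differences was not tested. The Wave regulator Cyfip2, 1 of 14 partner genes listed, was called higher in all 4 organs. Its log2 change was 1.98 in heart, 1.27 in kidney and 1.37 in lung. Calls of other partner genes at P1 are not given here. Of 26 regulators, 1 was lower in kidney (Smc3, -0.87; 3.06% of all genes). In liver 1 was higher (Rest, 1.01) and 13 were lower, including Smc3 (-1.39), Rad21 (-0.56) and Ctcf (-0.43), where 39.2% of all genes were called and 20.7% were higher. Among the 12 nonclustered protocadherins listed, Pcdh18 rose in heart (0.67), and Pcdh1 (0.76) and Pcdh12 (0.62) in kidney. In liver Pcdh1 (1.44), Pcdh12 (0.81) and Pcdh19 (3.13) rose. Of all genes, 1.54% were higher in heart, 7.58% in kidney and 20.7% in liver.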

How the data were processed

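Total RNA was extracted with TRIzol and poly(A) RNA libraries were sequenced as 150 bp pairs, per the labels' protocols, which also describe a low-input kit without naming its samples. Per the submitters' processing notes, the tools were Trim Galore 0.6.6, HISAT2 2.1.0, featureCounts 1.6.4 and DESeq2, with mm10. The authors deposited raw read counts per gene in 10 tables. How reads that overlap several genes were counted, and strand, are not given in the sources used here. For 11 embryo columns named O48, the pWT sample of the same stage and number was taken by elimination, and the embryo comparisons rest on it.

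Counts were tested with edgeR 4.0.16 (R 4.3.3; quasi-likelihood test, TMM scaling, filterByExpr with a minimum count of 10, Benjamini-Hochberg adjustment over all genes, threshold 0.05) in a fit of the groups compared: 17 comparisons of mutant and control, 3 of tissues and 3 of differences between effects. A second fit replaced each alpha and gamma count by shared and own reads. Members come by symbol, gene lists were written by hand, and both were chosen with earlier results of these data known. Named members are the called ones (up to 6 per comparison and direction), the C-type genes and the highest gene of each group. Those called in several comparisons are named too, as are called regulators, partners and nonclustered protocadherins. Beta genes averaged over organs and own reads were added after the values were seen. Alternatives included a DESeq2 1.42.0 fit, a fit without the filter, one with all libraries, a replicate block and leaving out each library. The scripts were tested on simulated data. Libraries of a group differed by at least 3.65 times the sampling variance (chi-square per degree of freedom), so none was counted as a duplicate. Replicate numbers were taken to pair libraries only where 3 or more pairs all correlated over 0.1, which held in none of the 6 comparisons with that many pairs. The other 11 have too few pairs to be judged.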

Additional observations from a re-analysis of the deposited data

Results flagged for a closer look

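Of 33 groups of 4 or more libraries in which a member or cluster measure was examined for a library far from the others, 6 held one. Chance alone gives about 1 in 20 for continuous values. That rate does not hold for groups of mostly 0 counts, where any lone library with reads is flagged. In 2C embryos, where most libraries had 0 counts, the shared gamma reads were 5.33 CPM in pWT library 1 and 3.31 CPM in pIR library 2 against 0 in the other libraries of each group, and Pcdhgc3 own reads were 2.44 CPM in pIR library 3 against 0. In batch 2 hearts at E18.5, shared alpha reads were 0.332 CPM in pWT library 3, below the other 3 (0.753 to 0.793). In pIR hearts of that batch, Pcdhb17 was 3.63 CPM in library 2, below the others (5.06 to 5.25), and Pcdhgb7 own reads were 7.18 CPM in library 1, below the others (8.35 to 8.4).

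The pIR effect on Pcdhgc3 own reads at P1 differed between organs (adjusted p = 0.00169 by edgeR). Liver was not tested separately against the others. The log2 change was 2.81 in liver and 0.82 to 1.15 in the other organs, and the pWT liver libraries had the lowest Pcdhgb8 percent of shared gamma reads, 16.54 to 22.08.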

How the results depend on the processing

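Under the alternatives, 261 counts of members called stayed within 1.5 times the main count and 54 did not. DESeq2 gave 2 in P1 heart and kidney, 22 in P1 lung and 26 for the pTKO effect by tissue. Without the low-count filter there was 1 in pTKO brain and P1 lung and 2 in P1 kidney. With other libraries in the fit there was 1 in pTKO liver and 2 in P1 heart. With shared reads counted once, own rows called were 0 in TKO, 1 in STOP, 9 in pTKO brain, 2 in pTKO heart, 2 in P1 kidney and lung, 1 in P1 liver, 33 among E18.5 organs, 37 among P1 organs and 1 for the pIR effect by tissue; fewer rows were tested.

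The replicate block, which pairs libraries by number, gave 1 member in pTKO heart and P1 lung, 0 in P1 heart and 2 in P1 kidney and liver. It ended the calls of the shared gamma reads in pTKO heart (log2 change -0.56) and P1 liver (0.42), of Pcdhgc3 in P1 heart (1.06) and of Pcdhga11 in pTKO heart (1.21). None of the 6 comparisons with 3 or more pairs met the pairing check. Of the 11 with fewer, STOP (0.11 to 0.15), pTKO lung (0.17) and P1 lung (0.19) had correlations over 0.1. In pTKO heart, kidney and liver the correlations were below -0.1, and crossed pairs gave 21, 0 and 0 members.

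Leaving out 1 library gave 0 to 9 members in STOP (9 without WT 2, otherwise 0), 0 to 21 in pTKO heart (0 without either pTKO library), 0 to 5 in pTKO kidney (5 without pWT 1, 1 without pWT 2), 0 to 24 in pTKO liver (24 without pWT 1) and 0 to 39 in pTKO lung (39 without pTKO 2, 1 without pTKO 1). At P1 it gave 0 to 1 in heart (0 without any pWT library or pIR 2), 0 to 2 in kidney (0 without pWT 1, pWT 2 or pIR 1, 2 without the others), 1 to 22 in liver (1 without pIR 1, 2 without any pWT library, 22 without pIR 2) and 0 to 2 in lung (2 without pWT 2). For the pTKO effect by tissue it gave 0 to 24 (24 without pWT liver 1, 22 without pTKO lung 2) and for the pIR effect by tissue at P1 0 to 2 (2 without pIR liver 2, 1 without pWT heart 1). The cause was not tested. Where a pair lost a library, the lone one was assumed to vary like the others.

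The sign of 11 values that passed no test turned. Over single libraries, STOP Pcdhgc3 own reads ran from -0.03 to 0.12, and the STOP against TKO shared gamma reads from -0.21 to 0. The pTKO lung shared alpha reads ran from -0.94 to 0.22 and those of P1 lung from -0.03 to 0.57. In pIR liver at E18.5, Pcdhgc3 own reads ran from -0.03 to 0.15 and shared gamma reads from -0.06 to 0.09.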
